A study of Mus musculus with 6 samples.

Results

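Genes of the GABAergic interneuron lineage were followed in newborn mouse cortex in which the hippocampal repressor Zbtb20 had been placed by a transgene. The set holds 34 genes that were listed by name, and 32 of them were read by a probe set carrying their symbol alone, of 18193 genes measured in all. Of the other two, Etv1 was named only together with other symbols and Sp9 was not named in the annotation used, so both were not analysed here. Tissue came from C57BL/6 mice on postnatal day 1 and comprised subiculum and retrosplenial cortex. One group carried the D6/Zbtb20S transgene, and its dissected tissue is labelled as transformed to hippocampal field CA1. The other was the matching tissue of wildtype littermates. There were 3 arrays of each genotype, each with RNA pooled from 7 animals. Whether the pools of a genotype were taken from different litters is not stated, and the p-values therefore reflect only how these pools varied. Which cells carry the transgene is not stated either.

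Cortical and hippocampal GABAergic interneurons are born in the ganglionic eminences of the ventral forebrain and migrate into the dorsal areas that were dissected here. Homeobox genes of the Dlx family, acting after the progenitor factor Gsx2, set the GABAergic programme, and the enzymes Gad1 and Gad2 then make GABA from glutamate. Cells of the medial eminence use Lhx6 and Sox6 and give rise to parvalbumin and somatostatin interneurons, while cells of the caudal eminence use Prox1, Nr2f2 and Sp8 and include calretinin (Calb2) and Vip interneurons.

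The values were log2 signals, 1 per probe set and array, and a difference is D6/Zbtb20S minus wildtype with its standard error. Array medians lay between 3.83 and 3.97, and a gene under its array's median on all 6 arrays is called dim below. Wildtype replicate 3 stood apart: the 1 of 9 Zbtb20 probe sets that passed over all probe sets read 6.44 and 5.84 on wildtype replicates 1 and 2, 7.64 on wildtype replicate 3, and 8.88, 9.10 and 8.94 on the transgenic arrays. On it the actin control read 1.31 higher at the 3' than at the 5' end, against 0.53 (wildtype replicate 1) to 0.91 on the other 5 arrays. The same difference for the GAPDH control was 0.30 on wildtype replicate 3, -0.33 on wildtype replicate 1 and -0.034 to -0.002 on the other arrays. In this control wildtype replicate 1 thus lay apart on the other side. Member differences that moved by over 1.5 times without wildtype replicate 3 are given both ways, and members whose call changed are named. For genes outside the members only the values over all 6 arrays are given, and some of these may depend on this array. All 6 genes listed for retrosplenial cortex and subiculum, Tshz2, Nr4a2, Cxcl14, Nts, Fn1 and Cntn6, were measured. Their list averaged 8.36 to 8.47 on the wildtype arrays, and all 6 fell in transgenic tissue. They were chosen with earlier results of these data known, so their levels and falls are no independent check of the dissection.

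The stretches of 250 bases before the transcription start are shown for 4 members: Gad1, the steadiest fall, the related genes Nxph1 and Nxph2, which fell together, and Npas1, the one member that rose. They are from RefSeq (GRCm38.p6), each from the most upstream listed start, and read 5′ to 3′. The Gad1 stretch is chr2:70561879-70562128 on the plus strand, Nxph1 is chr6:8949769-8950018 on the plus strand, Nxph2 is chr2:23320996-23321245 on the plus strand and Npas1 is chr7:16476781-16477030 on the minus strand. Capitals mark GC boxes, written GGGCGG or, on the other strand, CCGCCC.
Gad1: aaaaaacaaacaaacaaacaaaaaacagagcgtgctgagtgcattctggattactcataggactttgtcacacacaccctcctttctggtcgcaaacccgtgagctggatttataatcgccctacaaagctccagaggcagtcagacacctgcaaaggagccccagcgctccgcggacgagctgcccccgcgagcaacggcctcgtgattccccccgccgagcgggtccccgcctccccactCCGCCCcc
Nxph1: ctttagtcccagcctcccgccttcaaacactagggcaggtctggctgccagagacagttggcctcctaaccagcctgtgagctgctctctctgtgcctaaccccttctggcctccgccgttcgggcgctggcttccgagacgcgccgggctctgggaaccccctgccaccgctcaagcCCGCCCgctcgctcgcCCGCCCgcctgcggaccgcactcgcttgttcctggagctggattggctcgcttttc
Nxph2: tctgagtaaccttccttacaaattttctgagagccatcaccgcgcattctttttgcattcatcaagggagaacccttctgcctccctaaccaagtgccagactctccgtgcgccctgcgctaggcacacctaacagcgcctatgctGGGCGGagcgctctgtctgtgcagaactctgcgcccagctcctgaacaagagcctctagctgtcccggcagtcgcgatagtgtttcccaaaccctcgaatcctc
Npas1: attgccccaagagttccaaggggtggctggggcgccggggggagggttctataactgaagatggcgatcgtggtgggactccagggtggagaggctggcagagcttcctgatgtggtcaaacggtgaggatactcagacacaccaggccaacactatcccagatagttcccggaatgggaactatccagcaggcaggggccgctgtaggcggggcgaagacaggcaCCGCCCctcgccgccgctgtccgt

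A GC box stood in each of these 4 stretches, 8 bases before the start of Gad1, 72 and 56 before Nxph1, 104 before Nxph2 and 24 before Npas1. Of the 34 genes, 29 had a promoter entry, and 16 of those (55.2%) held a GC box at some listed start, against 35.4% of 27025 genes. The homeodomain core TAATTA stood before 4 of the 29 (13.8%, against 5.65% of genes), among them Dlx6os1 with 2 matches and Zfp536 with 1. It was not found in the stretches of Gad1, Nxph1, Nxph2 or Npas1, and neither was CACGTG, which 6.86% of genes held. These matches describe letters in a window and were not tied to the array values.

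Of the 32 members, 5 fell and 1 rose in transgenic tissue at an adjusted p under 0.05. The falls were Gad1, Nxph1, Nxph2, Tiam1 and Slc6a17, and the rise was Npas1. As a share, 15.6% of members were lower against 3.64% of all genes, and 3.12% higher against 4.06%. In either direction it was 18.8% against 7.71%. The base of 7.71% includes many dim genes. Among the 11838 genes above the array median on at least 3 arrays, which hold 26 of the 32 members, 11.9% passed when fitted alone. The members were chosen with earlier results of these data known, so the shares were not tested. The median difference over the members was -0.07, with -0.015 over all genes, and members ran from -0.60 (Gad1) to 0.80 (Npas1). All 3 transgenic arrays lay under all wildtype arrays for 11 members (34.4%, against 13.2% of genes) and above them for 1 (3.12%, against 12.9%). At an unadjusted p under 0.05, 10 of the 32 members were lower and 3 of the 32 higher. Over all 18193 genes 1768 (9.72%) were lower and 1926 (10.6%) higher at that level. Only Gad1 fell when wildtype array 2 or transgenic array 1 was dropped. Without wildtype replicate 3 there were again 5 falls, with Rpp25 in place of Tiam1, and 2 rises, Npas1 and Npas3. Among members that passed neither with nor without that array, dropping it moved the size of the difference by over 1.5 times in Dlx1 (to 0.25), Dlx6os1 (0.18), Zfp536 (0.26), Reln (0.09), Maf (0.08), Nr2f2 (0.075), Ptprm (-0.08), Ackr3 and Prox1, and turned the sign of Dlx5 (-0.06), Pvalb (-0.01) and Sp8 (0.001).

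**Figure D1:**
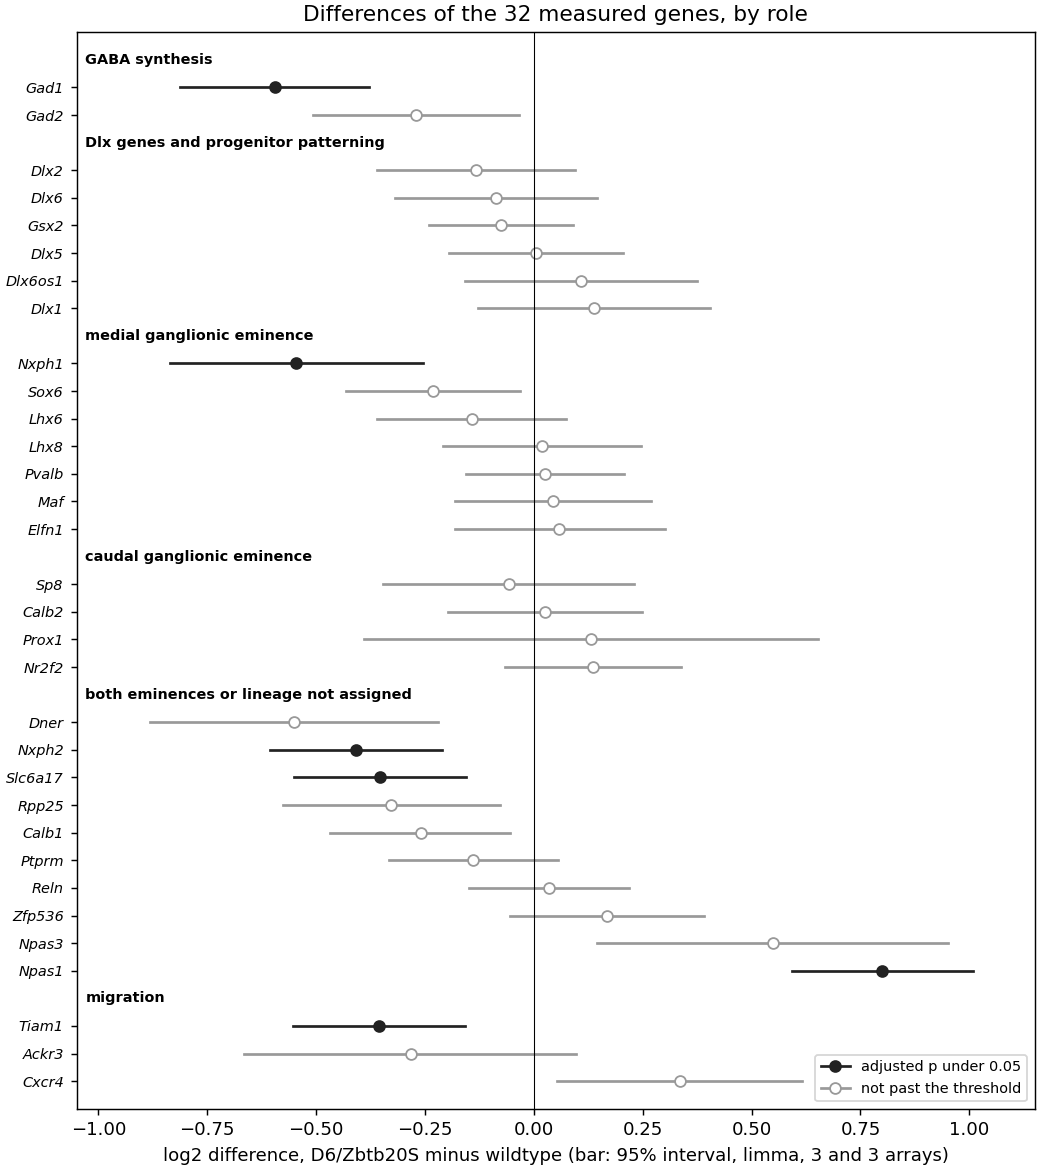
Log2 differences (D6/Zbtb20S minus wildtype, x axis) of the 32 measured members, grouped by role, with 95% intervals from limma over 3 arrays per genotype. Filled points passed an adjusted p of 0.05: Gad1, Nxph1, Nxph2, Slc6a17 and Tiam1 lie left of 0 and Npas1 right of it, while all Dlx and caudal eminence genes have intervals that cross 0.

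Of the genes for GABA synthesis, Gad1 fell and Gad2 did not pass. Gad1 encodes the GAD67 form of glutamate decarboxylase, which supplies most of the GABA in interneuron cell bodies. It read 8.32, 8.51 and 8.60 on the wildtype arrays and 7.95, 7.92 and 7.77 on the transgenic arrays. The groups did not overlap, and the fall was 1.51-fold (-0.60 ± 0.10, limma adjusted p = 0.0047). In these bulk samples, fewer cells of a type and less RNA per cell cannot be told apart. The second, dimmer Gad1 probe set, 1416562_at, read 4.53, 4.37 and 4.41 against 3.93, 3.78 and 4.27, also without overlap, but did not pass over all probe sets (-0.44 ± 0.13, adjusted p = 0.0989). Gad1 passed in 13 of 14 alternative fits, missing only with an ordinary linear model (adjusted p = 0.102).

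Gad2, which encodes the synaptic GAD65 form, read 5.76, 5.83 and 5.83 in wildtype tissue and 5.65, 5.66 and 5.30 in transgenic tissue. The arrays did not overlap, but the nearest ones were close, and the difference was -0.27 (95% interval -0.51 to -0.03, adjusted p = 0.184). The other Gad2 probe set, 1421978_at, which lay under the array median, gave 0.47 ± 0.15 (adjusted p = 0.131), so the pair of probe sets had opposite signs. Slc32a1, the vesicular transporter that loads GABA and glycine, read 5.24, 5.26 and 5.45 against 5.06, 4.93 and 5.11. Those arrays did not overlap either, and the difference of -0.29 ± 0.09 did not pass (adjusted p = 0.0946). Its 3 other probe sets ran from -0.03 to 0.16.

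**Figure D2:**
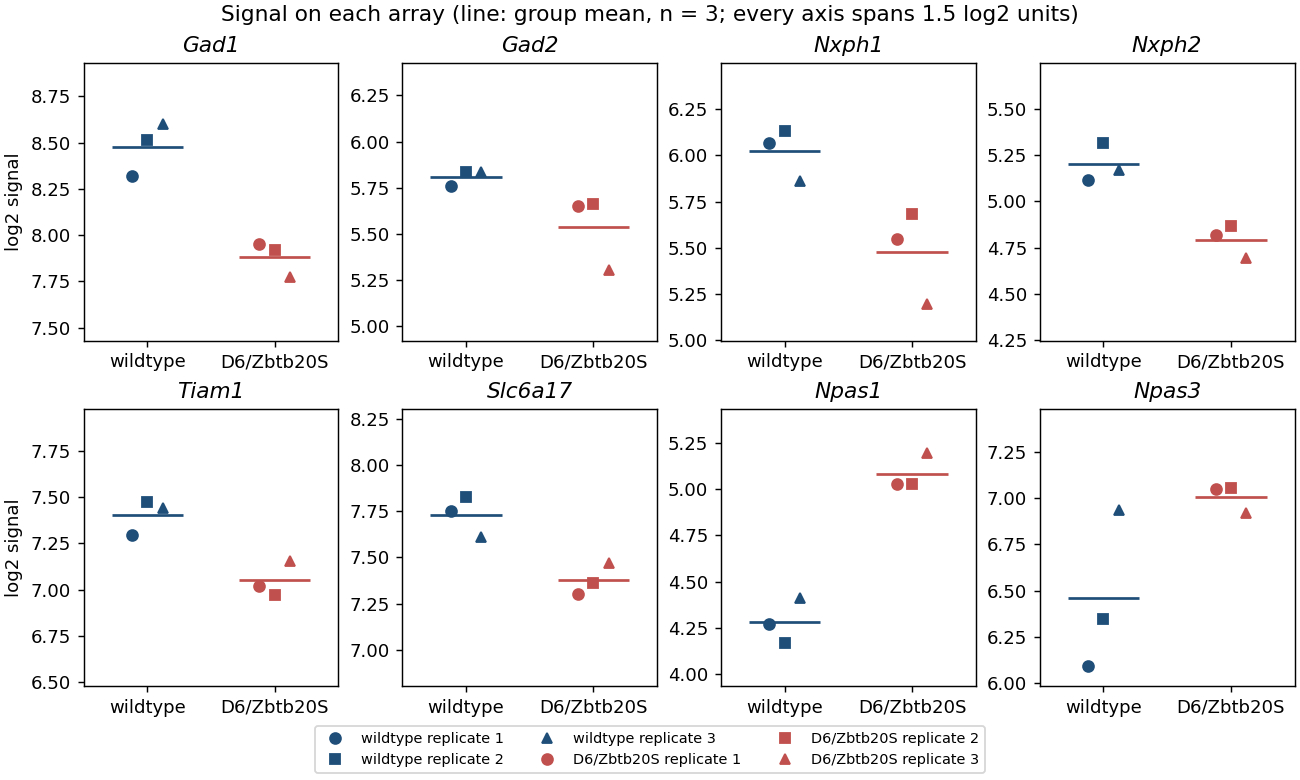
Log2 signal (y axis) of 8 members on each of the 6 arrays, with the group means as lines. Gad1, Nxph1, Nxph2, Tiam1 and Slc6a17 are lower and Npas1 higher on every transgenic array, while for Npas3 wildtype replicate 3 (6.93) lies level with the transgenic arrays (6.92 to 7.06).

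None of the 6 Dlx and progenitor genes passed the limma test, against 7.71% of all genes. With an unadjusted p under 0.05 there were 0, against 20.3% of all genes. Dlx1 and Dlx2, homeobox genes that start the GABAergic programme and lie near each other in the genome, differed in sign. Dlx1 read 6.18, 6.00 and 6.43 in wildtype and 6.39, 6.44 and 6.19 in transgenic tissue, a difference of 0.14 (95% interval -0.13 to 0.40, adjusted p = 0.583). Dlx2 read 6.47, 6.43 and 6.48 against 6.38, 6.49 and 6.12, a difference of -0.13 (95% interval -0.36 to 0.09, adjusted p = 0.526). In both genes the groups overlapped.

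Dlx5, which acts downstream of Dlx1 and Dlx2, read 5.17, 5.07 and 4.92 in wildtype and 5.13, 5.02 and 5.02 in transgenic tissue. Its difference was 0.005 (95% interval -0.19 to 0.20), and the sign turned with other scalings. Dlx6 (-0.09) and Dlx6os1 (0.11), the antisense RNA that overlaps Dlx6, were dim, as was Gsx2 (-0.08), the homeobox gene of ventral progenitors. The strand of the probes was not used here, so signal of Dlx6 and of its antisense partner may not be separate. Over the 6 genes the 95% intervals reached from -0.36 to 0.40.

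In the medial eminence group 1 of 7 members fell, Nxph1 (14.3%, against 3.64% of all genes), and 0 rose (against 4.06%). Nxph1 encodes neurexophilin 1, a secreted ligand of alpha-neurexins that cortical interneurons express. It read 6.07, 6.13 and 5.86 in wildtype and 5.54, 5.68 and 5.20 in transgenic tissue. The groups did not overlap, and the fall was 1.46-fold (-0.54 ± 0.13, adjusted p = 0.032). Its other probe sets were lower on every transgenic array too, at -0.28 ± 0.09 and -0.42 ± 0.11, but did not pass over all probe sets (adjusted p = 0.154 and 0.068). Dropping wildtype array 1 or 2, or transgenic array 1 or 3, ended the call (highest adjusted p 0.135), as did an ordinary linear model (0.231).

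Lhx6, the LIM homeobox gene that defines interneurons of the medial eminence, read 6.78, 6.71 and 6.55 in wildtype and 6.55, 6.66 and 6.40 in transgenic tissue. The groups overlapped, and the difference was -0.14 (95% interval -0.36 to 0.07, adjusted p = 0.466). Sox6, an SRY-related factor that acts after Lhx6, read 6.12, 6.18 and 6.22 against 6.08, 5.93 and 5.81. Its arrays did not overlap, and the difference of -0.23 ± 0.09 did not pass (adjusted p = 0.176). The Sox6 probe set is of the _x_at type, which can match several transcripts, and its 3 other probe sets ran from -0.12 to -0.01. Sox6 is also expressed in oligodendrocyte precursors. Of 9 oligodendrocyte lineage genes 4 fell and 0 rose, with Olig1 (-0.68, adjusted p = 0.00079) and Olig2 (-0.77, adjusted p = 0.0019) among the falls. Pdgfra (-0.29, adjusted p = 0.243) and Cspg4 (0.02, adjusted p = 0.941), precursor markers picked after their values were seen, did not pass. The Pdgfra arrays did not overlap. Of the 9 genes, 7 had differences below 0 and 2 above it. On every transgenic array 6 were lower (66.7%, against 13.2% of all genes), Sox10 among them (-0.25, adjusted p = 0.0914). The part of oligodendrocyte lineage cells in the Sox6 value was not tested.

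The bZIP factor Maf depended on the probe set. The brightest, 1456060_at, read 7.32, 7.56 and 7.55 in wildtype and 7.62, 7.57 and 7.37 in transgenic tissue (0.04 ± 0.10, adjusted p = 0.854). The next, 1447849_s_at, read 7.11, 7.24 and 7.21 against 6.82, 6.76 and 6.62, and 1435828_at read 5.81, 6.14 and 5.90 against 5.62, 5.50 and 5.33. Both were lower on every transgenic array, by 0.45 on the log2 scale (± 0.09, adjusted p = 0.0204 over all probe sets) and 0.47 (± 0.12, adjusted p = 0.0528), and the first of them passed. The remaining 3 ran from -0.33 to 0.17, and the mean of all 6 was -0.16 (adjusted p = 0.23). Maf is also expressed in microglia, of whose 9 markers 4 rose.

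Lhx8, a relative of Lhx6, was dim (0.02). Elfn1, a synaptic protein of somatostatin interneurons, was at 0.06, and the parvalbumin gene Pvalb, which is switched on later than the age studied, at 0.02. All 3 had overlapping groups.

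In the caudal eminence group 0 of 4 members passed in either direction, against 7.71% of all genes. With an unadjusted p under 0.05 there were 0, against 20.3% of all genes. With 4 members, 2 of them dim, a count of 0 does not set this group apart from all genes. Nr2f2 encodes the orphan nuclear receptor COUP-TFII. On its brightest probe set it read 7.16, 7.26 and 7.03 in wildtype and 7.19, 7.30 and 7.36 in transgenic tissue, a difference of 0.14 (95% interval -0.07 to 0.34, adjusted p = 0.453). All 6 of its probe sets had positive differences. One of them, 1416160_at, read 3.71, 3.90 and 4.41 against 4.72, 4.75 and 4.81, lay higher on every transgenic array and passed over all probe sets (0.75 ± 0.16, adjusted p = 0.0332).

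Calb2, the calcium-binding protein calretinin, read 6.97, 6.62 and 6.82 in wildtype and 6.88, 6.83 and 6.77 in transgenic tissue. The transgenic values fell inside the wildtype range (difference 0.03, 95% interval -0.20 to 0.25, adjusted p = 0.918). The homeobox gene Prox1 and the zinc finger gene Sp8 were dim. Prox1 read 1.76, 2.08 and 2.88 on the wildtype arrays, so that wildtype replicate 3 lay above all transgenic arrays (2.29 to 2.51) and the other wildtype arrays below them. Its difference was 0.13 with all arrays and 0.45 without wildtype replicate 3 (adjusted p = 0.0516).

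Set side by side, the medial eminence genes had a median difference of 0.02 and the caudal eminence genes of 0.08, beside -0.015 over all genes. Under the alternatives the medial median ran from -0.07 to 0.02 and the caudal one from -0.02 to 0.10, both on either side of 0. The mean log2 signal of the medial genes minus that of the caudal genes was 0.64, 0.64 and 0.33 on wildtype replicates 1, 2 and 3, and 0.36, 0.47 and 0.27 on the transgenic arrays. Wildtype replicate 3 lay among the transgenic arrays and the other wildtype arrays above them. That place of wildtype replicate 3 rested on the dim gene Prox1. Without Prox1, an alternative chosen after seeing the data, the score was -0.36, -0.27 and -0.38 on the wildtype arrays and -0.53, -0.38 and -0.53 on the transgenic arrays, and wildtype replicate 3 lay close to wildtype replicate 1. The lowest wildtype array was then level with the highest transgenic array. In the medial group 3 of 7 differences were below 0, Nxph1 (-0.545), Sox6 (-0.23) and Lhx6 (-0.14), and 4 were above it. The score was not computed without Nxph1, so a shift of the whole group cannot be read from it. The members were chosen with earlier results known, so this score was not tested.

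**Figure D3:**
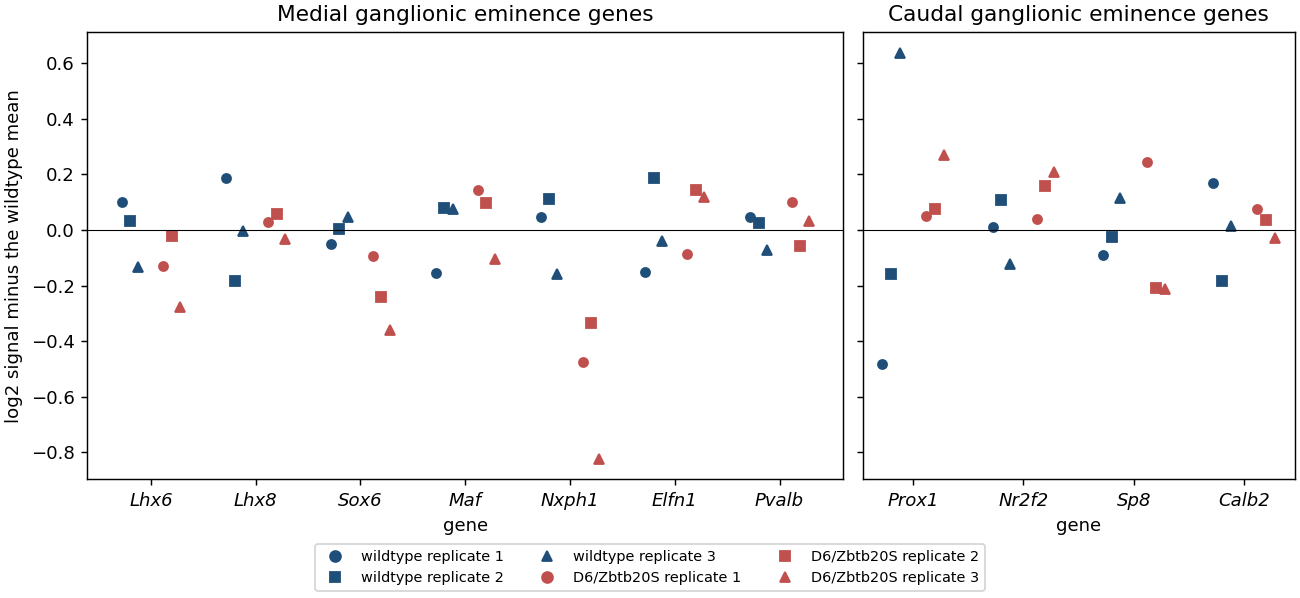
Log2 signal of each array minus the wildtype mean of the gene (y axis) for the 7 medial and 4 caudal eminence members. Nxph1 and, less far, Sox6 lie below 0 on all transgenic arrays, and wildtype replicate 3 is high on Prox1 (2.88 before the mean was taken off).

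The largest change among the members was a rise. Npas1, a bHLH-PAS transcription factor of interneurons and their precursors, read 4.27, 4.17 and 4.41 in wildtype and 5.03, 5.03 and 5.20 in transgenic tissue. The groups were far apart relative to their spread, and Npas1 rose 1.74-fold (0.80 ± 0.09, adjusted p = 0.00061). It passed in 13 of 14 alternative fits and was at 0.0549 with an ordinary linear model. It was read by 1 probe set.

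Its relative Npas3 depended on wildtype replicate 3. It read 6.09, 6.35 and 6.93 on the wildtype arrays and 7.05, 7.06 and 6.92 on the transgenic arrays. The difference was 0.55 ± 0.18 over all arrays (adjusted p = 0.108) and 0.79 without wildtype replicate 3 (adjusted p = 0.00151). Of its 3 other probe sets 1450287_at was at 0.56 ± 0.22, and the other two at -0.03 and 0.06. The same array was high in Zbtb20 and in the actin end difference, and their part in the result was not tested.

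Nxph2, neurexophilin 2, fell with its relative Nxph1. It read 5.12, 5.32 and 5.17 in wildtype and 4.82, 4.87 and 4.70 in transgenic tissue, without overlap. The fall was 1.33-fold (-0.41 ± 0.09, adjusted p = 0.0201). The call ended when wildtype array 2 or transgenic array 1 or 3 was dropped (highest adjusted p 0.103), and in an ordinary linear model (0.122).

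Slc6a17, a transporter that loads neutral amino acids into synaptic vesicles, read 7.75, 7.83 and 7.61 in wildtype and 7.30, 7.36 and 7.47 in transgenic tissue. The groups did not overlap, and the fall was 1.28-fold (-0.35 ± 0.09, adjusted p = 0.0392). Its other probe sets gave -0.22 and 0.04, and their mean with it was -0.18 (adjusted p = 0.251). Leaving aside array 1 or 2 of either genotype also ended the call (highest adjusted p 0.173), as did an ordinary linear model (0.15). Which cells gave the Slc6a17 signal was not resolved in this bulk tissue, and the same holds for the other members, Dner and Tiam1 included.

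Dner, a transmembrane ligand with EGF repeats that acts on Notch, was close to the threshold. Its brightest probe set, of the _x_at type, read 9.73, 10.20 and 10.28 in wildtype and 9.71, 9.46 and 9.40 in transgenic tissue, a difference of -0.55 ± 0.15 (adjusted p = 0.0537). Wildtype replicate 1 was level with the highest transgenic array, and without it the difference was -0.72 (adjusted p = 0.00669). The other probe set, 1423671_at, read 9.74, 9.86 and 9.79 against 9.30, 9.16 and 9.39 and passed over all probe sets (-0.51 ± 0.09, adjusted p = 0.0122). The mean of both passed as well (-0.53, adjusted p = 0.00918).

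Rpp25, a protein subunit of RNase P, read 5.72, 5.79 and 5.38 in wildtype and 5.26, 5.35 and 5.29 in transgenic tissue. Its difference was -0.33 ± 0.11 (adjusted p = 0.121), and -0.46 without wildtype replicate 3 (adjusted p = 0.012). The adhesion phosphatase gene Ptprm (-0.14) and the zinc finger gene Zfp536 (0.17) had overlapping groups and did not pass.

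Reln, the secreted glycoprotein of Cajal-Retzius cells and of some interneurons, did not pass, and its interval was narrow. It read 9.94, 9.95 and 10.11 in wildtype and 10.07, 9.99 and 10.04 in transgenic tissue (difference 0.03, 95% interval -0.15 to 0.22, adjusted p = 0.856). Calbindin, encoded by Calb1, is a calcium-binding protein of interneurons and of hippocampal pyramidal and granule cells. It read 7.05, 6.92 and 6.92 against 6.73, 6.56 and 6.82, without overlap, and did not pass (-0.26 ± 0.09, adjusted p = 0.137).

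Of the 3 migration genes, 1 fell (33.3%, against 3.64% of all genes). Tiam1, an activator of the small GTPase Rac, read 7.30, 7.48 and 7.44 in wildtype and 7.02, 6.97 and 7.16 in transgenic tissue. The groups did not overlap, and the fall was 1.28-fold (-0.36 ± 0.09, adjusted p = 0.0378). A dim probe set of Tiam1, 1444373_at, was lower by 0.46 on the log2 scale and passed over all probe sets (adjusted p = 0.0355), while the mean of all 3 did not (-0.31, adjusted p = 0.0797). Its call ended without wildtype array 2 or 3 or transgenic array 1 or 2 (highest adjusted p 0.163), and in an ordinary linear model (0.146). With 1 array left out the Tiam1 difference ran from -0.41 to -0.32.

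The receptors of the chemokine Cxcl12, which keeps migrating interneurons in their streams, had differences of opposite sign. Cxcr4, the signalling receptor, read 5.65, 5.78 and 5.98 in wildtype and 6.39, 6.05 and 5.98 in transgenic tissue (0.34 ± 0.13, adjusted p = 0.162). Ackr3, the scavenging receptor, read 5.36, 5.46 and 4.89 against 5.19, 5.02 and 4.65 (-0.28 ± 0.17, adjusted p = 0.402), and its difference was -0.46 without wildtype replicate 3 (adjusted p = 0.10). Neither passed, and in each gene the groups overlapped. Cxcl12 itself differed by -0.002 ± 0.15. Cxcr4 is also expressed in microglia.

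Across all 65 probe sets of the members, 7 passed (10.8%, against 5.52% of 45037 probe sets), 2 higher and 5 lower. They belonged to 7 genes, and 4 of them were not the brightest set of their gene: those of Maf, Nr2f2, Dner and Tiam1. In 8 genes the probe sets had differences of both signs. Adjusted over probe sets in place of genes, Nxph1, Slc6a17 and Tiam1 missed the threshold on their brightest set (adjusted p = 0.0563, 0.0617 and 0.0596), and Gad1, Nxph2 and Npas1 passed.

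**Figure D4:**
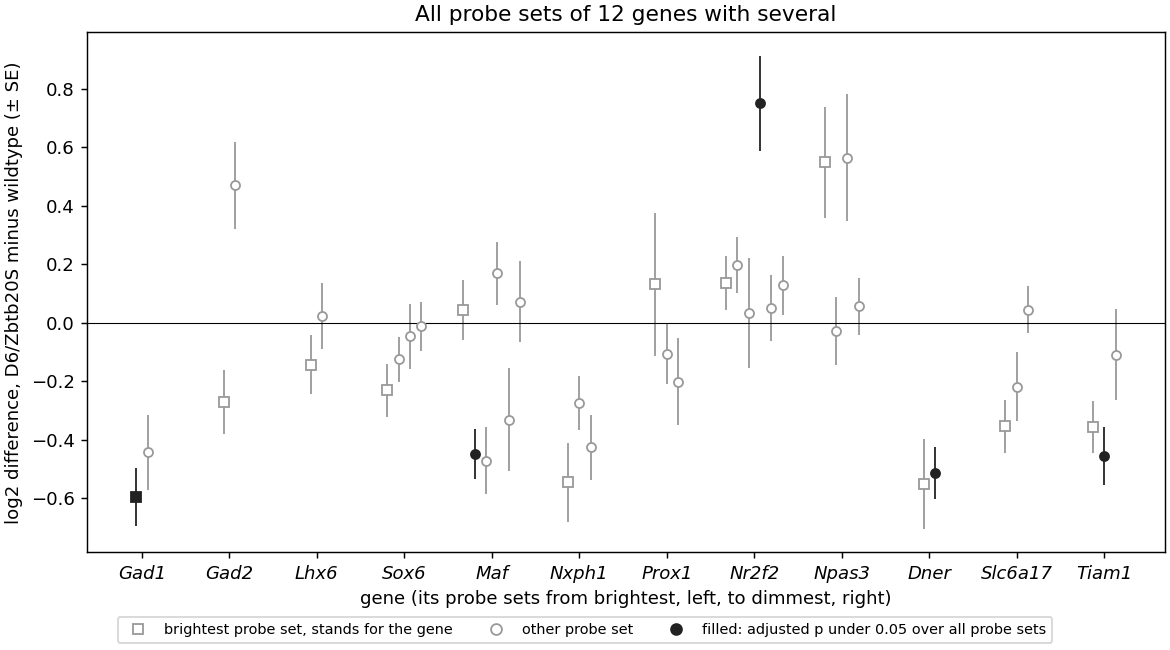
Log2 differences (y axis, ± SE) of all probe sets of 12 members with several, ordered from brightest to dimmest within each gene. Filled symbols passed over all probe sets. All Nxph1 sets lie below 0 and all Nr2f2 sets above it, while the Maf sets fall on both sides.

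Other genes of interneuron development were read from a list of 42 genes, of which 38 were measured, 5 rose and 4 fell. That is 23.7%, against 7.71% of all genes and 11.9% of those above the array median on at least 3 arrays, and the list median was -0.10. Of 4 GABA handling genes 0 passed, and the brightest, Aldh5a1 (0.20) and Slc6a11 (-0.11), had differences of opposite sign. Among 6 ventral transcription factor genes, Zeb2 rose 2.52-fold (7.97, 7.94 and 8.25 against 9.37, 9.48 and 9.30; adjusted p = 5.1e-05) and Satb1 fell 2.28-fold (8.55, 8.73 and 8.79 against 7.64, 7.61 and 7.26; adjusted p = 0.00022). All 5 Zeb2 probe sets rose over all probe sets, and 3 of 5 Satb1 sets fell. Zeb2 and Satb1 act in interneurons of the medial eminence and are expressed in cortical pyramidal neurons as well.

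Among 15 peptide and subtype genes, Cck rose 1.57-fold and Lamp5 fell 1.89-fold, and 13 did not pass. Differences were below 0 in 11 of the 15 and above 0 in 4. Every transgenic array was lower in 5 (33.3%, against 13.2% of all genes) and higher in 2 (13.3%, against 12.9%). The 5 were Lamp5, Crh (-0.48), the dim Chodl (-0.34), Kit (-0.26) and Cort (-0.22), and only Lamp5 passed. Somatostatin (Sst), the peptide of a large class of medial eminence interneurons, read 7.18, 7.15 and 7.19 in wildtype and 7.07, 6.97 and 7.24 in transgenic tissue (-0.08 ± 0.09, adjusted p = 0.672). Neuropeptide Y (Npy) was at -0.21 ± 0.10 (adjusted p = 0.276). Vip (0.07 ± 0.19) and Htr3a (-0.02 ± 0.09), which mark some caudal eminence interneurons, were picked after their values were seen and had overlapping groups. Vip read 4.71, 4.75 and 5.40 in wildtype and 5.14, 4.75 and 5.20 in transgenic tissue. The list was not sorted by eminence, and Cck and Lamp5 were not assigned to one.

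Of 13 genes of migration and guidance, Nrp2 (2.04-fold), Robo1 (1.79-fold) and Epha4 (1.51-fold) rose, and Gfra1 (3.11-fold) and Efna5 (1.59-fold) fell. Nrp2 and Robo1 are guidance receptors of semaphorins and Slit proteins, Epha4 and Efna5 an Eph receptor and an ephrin, and Gfra1 the GDNF co-receptor. These genes are expressed by pyramidal neurons as well as by interneurons, and their cell of origin was not resolved here. Erbb4, the neuregulin receptor of interneurons, was read on a dim probe set (-0.16).

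Markers of other cell types that share members moved with the genotype in part. Of 9 oligodendrocyte genes 4 fell, Olig1, Olig2, Mbp and Cnp, and their list averaged 6.18 to 6.43 on the wildtype and 5.88 to 6.06 on the transgenic arrays. Of 9 microglial genes 4 rose, Cx3cr1, Tyrobp, Ctss and Fcrls, and their list averaged 5.13 to 5.27 against 5.54 to 5.88. Their part in the values of Sox6, Nxph1, Maf and Cxcr4 was not tested. Of 9 Cajal-Retzius genes, 2 of which are the members Reln and Calb2, 0 passed, with averages of 5.21 to 5.37 against 5.16 to 5.38. On every transgenic array 2 of these genes were lower, Trp73 (-0.26, adjusted p = 0.176) and the dim Lhx5 (-0.24, adjusted p = 0.1175). Ndnf was higher on every one (0.23, adjusted p = 0.201). As shares, 22.2% were lower, against 13.2% of all genes, and 11.1% higher, against 12.9%. The differences of the 9 genes were below 0 in 4 and above 0 in 5.

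Of 8 striatal genes 7 were dim, and the other, Penk, rose 1.58-fold. Of 7 dentate granule genes 5 were dim, Prox1 among them, and 0 passed, with Calb1 as given above and C1ql2 at -0.01. Of 8 endothelial genes 1 fell, the glucose transporter gene Slc2a1, and of 5 thalamic genes 0 passed (Prkcd 0.37, Lef1 -0.19). Of 7 excitatory neuron genes Neurod2 rose 2.17-fold, while Tbr1 (2.67-fold) and Slc17a6 (2.39-fold) fell.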

How the data were processed

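The authors deposited 1 log2 value per probe set and array from Affymetrix arrays, with RMA and limma listed in the submitters' processing notes, versions not given. The log2 base was inferred from the range of the values (up to 12.71), and how the arrays were last scaled to each other is unknown. After removal of 64 controls, 45037 probe sets remained. Names came from the platform annotation, and probe sets with several symbols (932) named no gene. Each of 18193 genes was represented by its brightest probe set on average over the 6 arrays.

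Differences were fitted over all genes with limma 3.58.1 in R 4.3.3 (lmFit, eBayes without a trend, no covariates, no filter on low values), with Benjamini-Hochberg adjustment and a threshold of 0.05. Every adjusted p is from limma, over all genes unless probe sets are named. Figures used matplotlib 3.10.9. The fit was tested on simulated data. The number of arrays limits the precision. Every measured member is named, and of the other lists the genes past the threshold or, where none passed, up to 2 with the highest mean. Slc32a1, Sst, Npy, Vip, Htr3a, Cxcl12, Erbb4, Pdgfra and Cspg4 were added after their values were seen. So were Sox10, Trp73, Lhx5, Ndnf, Crh, Chodl, Kit, Cort and Nrp1. The members and lists were chosen with earlier results of these data known. Results were recomputed with the replicate number as a block, without each array in turn, with equal medians, quantile normalization, array weights or an intensity trend, without dim probe sets, averaging or exchanging a gene's probe sets, at thresholds of 0.01 and 0.1, and by ordinary linear model.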

Additional observations from a re-analysis of the deposited data

How the results depend on the processing

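The count of members that fell was 5 and ranged from 1 to 5 when 1 array was left out (1 without wildtype replicate 2 or D6/Zbtb20S replicate 1, 3 without D6/Zbtb20S replicate 2 or 3). The count that rose ranged from 1 to 2, and that of all genes past the threshold from 777 to 1538, against 1402. With the replicate block 3 members fell, 1 rose and 1343 genes passed, and Slc6a17 and Tiam1 lost their calls (adjusted p = 0.0769 and 0.0588). Deviations of same-numbered arrays correlated at -0.215, 0.175 and -0.008. With 3 arrays per genotype these values cannot settle whether the numbers pair the arrays, and the labels do not say what the numbers mark. With array weights 8 members fell, 3 rose and 2707 genes passed. At an adjusted p under 0.01 there was 1 fall among the members and 693 genes passed. With the ordinary linear model 0 members passed in either direction and 267 genes did, while 7 members were lower and 1 higher at an unadjusted p under 0.05. Equal medians, quantile normalization, the intensity trend, the filter (26 of 32 members kept), the mean of probe sets and a threshold of 0.1 kept each count within 1.5 times.

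Signs turned only in members that had not passed, except on 1 other probe set of Slc6a17 (0.045). With 1 array left out, Dlx5 ran from -0.061 to 0.064, Dlx6 from -0.168 to 0.018, Lhx8 from -0.073 to 0.114, Maf from -0.033 to 0.12, Elfn1 from -0.016 to 0.154, Pvalb from -0.012 to 0.066, Prox1 from -0.109 to 0.451, Sp8 from -0.21 to 0.018 and Calb2 from -0.066 to 0.11. With equal medians Dlx5 was at -0.011, with quantile normalization Dlx5 was at -0.029 and Pvalb at -0.005, and with array weights Elfn1 was at -0.057. As the mean of probe sets Gad2 was at 0.10, Maf at -0.161 and Prox1 at -0.059. Single other probe sets gave 0.471 for Gad2, 0.024 for Lhx6, -0.448, -0.472 and -0.331 for Maf, -0.107 and -0.201 for Prox1, -0.028 for Npas3, -0.11 for Zfp536 and 0.049 for Calb1. The cause was not tested.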
